A study of Arabidopsis thaliana with 4 samples.

Results

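Genic CpHpG regions outside transposons are the differentially methylated regions (DMRs) of the CpHpG context (H is A, C or T) for which the deposited tables name a gene but no transposable element (TE). They were found by that rule in all 4 tables of called regions, counting each region once per table, and made up 411 of the 24806 regions of the series and 411 of its 3940 CpHpG regions. The other CpHpG regions named a TE in 3120 cases and neither a gene nor a TE in 409. The 411 entries fell in 362 distinct regions and named 308 loci.

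The data came from whole-genome bisulfite sequencing of leaves of wild-type Col-0 Arabidopsis thaliana acclimated for 22 d to 1 of 4 light regimes. These were fluctuating light at a low (FLL) or high (FLH) mean level, with a natural-like course of peaks and troughs over the day, and square light at a low (SQL) or high (SQH) level that stays constant while the lamp is on. Square and fluctuating regimes of the same level gave the same amount of light per day. DNA of 6 plants was pooled into 1 library per regime, so no difference has a replicate check, no p-value is given, and the intervals below (95%, Wilson) cover counting error only. Numbers of reads are sums over the cytosines of a region, so that 1 read can count several times. Reads are not independent molecules after amplification, and neighbouring cytosines share reads, so the intervals are likely too narrow. Leaves hold several cell types, so that a change in their proportions and a change within cells cannot be told apart. Only called regions were analysed here, and each was called because it differed, so the size and the existence of a difference are descriptions.

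Methylation in the CpHpG context is kept up in plants by a loop in which the methyltransferase CMT3 is drawn to histone H3 methylated at lysine 9, and the histone methyltransferase KYP is drawn to methylated CpHpG sites. The loop acts on TEs and other silent chromatin. Bodies of active genes carry mostly CpG methylation, and the histone demethylase IBM1 keeps the CpHpG loop away from them. CpHpG methylation in a gene is therefore known mainly from silenced genes, pseudogenes and genes next to repeats. Of the 2 kinds of CpHpG site, the palindromic CAG and CTG sites are usually methylated more than CCG.

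The sequences of 8 regions are shown because the results turn on them: 3 that were called in 2 comparisons with no library in common (AT2G27320, AT3G19560 and AT2G09860), and 5 from loci called in 3 comparisons. Capitals mark each CpHpG triplet on either strand (CAG, CTG, CCG or its complement CGG), and the strand is the forward one of the TAIR10.1 assembly of RefSeq, whose number of CpHpG cytosines equalled the deposited number in all 411 regions.
AT2G27320, intron, chr2:11693651-11693800: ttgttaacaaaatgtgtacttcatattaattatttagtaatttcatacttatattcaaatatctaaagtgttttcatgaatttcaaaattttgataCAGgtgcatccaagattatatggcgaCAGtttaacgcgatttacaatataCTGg
AT3G19560, coding exon, chr3:6794201-6794350: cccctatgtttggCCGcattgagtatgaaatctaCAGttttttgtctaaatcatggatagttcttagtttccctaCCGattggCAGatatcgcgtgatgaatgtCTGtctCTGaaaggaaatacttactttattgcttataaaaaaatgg
AT2G09860, midpoint upstream of a pseudogene, chr2:3726101-3726250: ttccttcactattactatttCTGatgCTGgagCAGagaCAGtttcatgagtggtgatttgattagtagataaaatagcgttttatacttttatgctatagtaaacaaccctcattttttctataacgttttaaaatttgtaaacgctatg
AT5G37150, coding exon, chr5:14702555-14702704: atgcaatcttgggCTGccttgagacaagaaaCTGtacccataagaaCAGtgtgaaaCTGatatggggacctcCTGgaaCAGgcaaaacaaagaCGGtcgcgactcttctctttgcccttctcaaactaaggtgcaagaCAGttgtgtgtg
AT5G37150, the adjoining region of the coding sequence, chr5:14702705-14702854: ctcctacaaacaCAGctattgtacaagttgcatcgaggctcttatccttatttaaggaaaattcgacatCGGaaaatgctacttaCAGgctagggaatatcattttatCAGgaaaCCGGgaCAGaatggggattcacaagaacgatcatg
AT2G32291, exon of a transcribed pseudogene, chr2:13717301-13717450: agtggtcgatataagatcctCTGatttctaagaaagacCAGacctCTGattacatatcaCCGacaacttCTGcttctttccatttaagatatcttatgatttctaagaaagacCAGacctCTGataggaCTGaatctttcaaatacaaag
AT3G43148, coding exon, chr3:15140651-15140800: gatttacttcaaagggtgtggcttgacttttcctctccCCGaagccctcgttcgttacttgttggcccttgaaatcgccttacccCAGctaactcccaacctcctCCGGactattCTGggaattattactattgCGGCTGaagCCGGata
AT4G18150, coding exon, chr4:10051301-10051450: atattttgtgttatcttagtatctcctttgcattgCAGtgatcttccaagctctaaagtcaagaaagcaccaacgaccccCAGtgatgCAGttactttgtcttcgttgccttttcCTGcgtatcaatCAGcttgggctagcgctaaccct

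The sequences differed in the kind of site they hold. All 6 CpHpG cytosines of the AT2G27320 region and all 8 of the AT2G09860 region stood in CAG or CTG sites. In the AT3G43148 region 6 of 12 stood in CCG sites. Over the 362 regions 19.9% of the CpHpG cytosines were in CCG sites, against 18.6% over all 625705 genomic 150 bp bins with at least 4 CpHpG cytosines and 17.1% over the CpHpG regions that name a TE. In SQL against SQH the share was 15.3% in the 32 gains and 29.6% in the 32 losses. In FLL against SQL it was 17.6% in gains and 21.2% in losses, in FLH against SQH 18.3% and 18.5%, and in FLL against FLH 22.0% and 20.7%.

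The genic label held for position but less so for the kind of gene. Of the 411 entries, 403 (98.1%) overlapped the locus they name. Protein-coding genes accounted for 263 (64%), loci that RefSeq types as pseudogenes for 98 (23.8%) and as transcribed pseudogenes for 40 (9.73%), RNA genes for 7, and 3 had no RefSeq entry. The pseudogene type is close to transposons in these tables: of the 5654 regions of any context that name such a locus, 5350 (94.6%) also named a TE, against 31.5% for transcribed pseudogenes and 16.6% for protein-coding genes. The annotation of 7 loci (12 entries) holds words for a transposase, a retrotransposon or a reverse transcriptase although no TE was named, among them AT3G30200, a plant transposase. Loci with a dimerization domain of the hAT type of TE, such as AT1G19260 and AT2G06500, were not found by these words. A region of any context and table that names a TE lay within 500 bp of 46 entries (11.2%) and overlapped 4, so that at these 4 the TE name differed between tables or contexts. One of them, AT1G25430, had 63.6% in FLL and 40.2% in SQL where no TE was named, and 65% in FLH and 35.2% in SQH in the table that names one.

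The midpoint of the region lay in a coding exon in 148 entries, in an exon of a gene without coding sequence in 125, in an intron in 79, in an untranslated exon in 20, up to 1 kb upstream in 19 and downstream in 17. Coding exons held 47 of 143 in FLL against SQL (32.9%), 36 of 116 in FLH against SQH (31.0%), 34 of 88 in FLL against FLH (38.6%) and 31 of 64 in SQL against SQH (48.4%). The share of introns had the opposite order at its ends, at 23.8% in FLL against SQL and 14.1% in SQL against SQH.

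**Figure D1:**
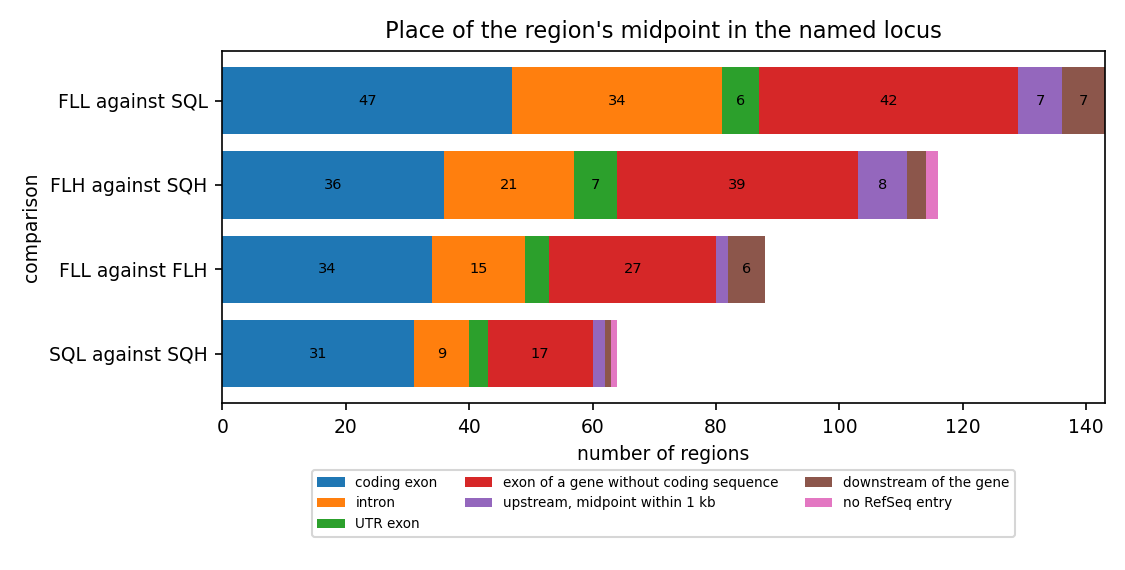
Number of genic CpHpG regions (x axis) by comparison (y axis), coloured by where the midpoint of the region lies in the named locus. Coding exons and exons of genes without coding sequence are the most frequent classes in each comparison, with 47 and 42 regions in FLL against SQL.

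Along the genome, 118 of the 362 distinct regions (32.6%) lay in the gene-poor pericentromeres, which hold 14.0% of the 150 bp bins with at least 4 CpHpG cytosines. Counted per table, the share was 31.6% for the genic regions and 60.9% (1901 of 3120) for the CpHpG regions that name a TE. Chromosome 2 held 23.8% of the genic regions and 16.3% of the bins, and chromosome 1 held 16.0% and 25.4%. Exact copies elsewhere in the genome covered at least 1 of the 50-base windows in 100 entries and at least 50% of them in 26. In 7 entries some windows also occurred in an organelle genome, and in AT2G07807, a pseudogene of a mitochondrial open reading frame on chromosome 2, all of them did.

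Gains, meaning a higher level in the first-named regime, prevailed in the fluctuating regimes. FLL against SQL gave 143 genic regions, 122 of them gains (85.3%, 78.6 to 90.2). As background, the whole table had called 0.227% of the 625705 bins in CpHpG, and 84.0% of its 1059 CpHpG regions that name a TE were gains. FLH against SQH gave 116 regions with 86 gains (74.1%, 65.5 to 81.2), where 0.185% of the bins were called and 80.1% of 884 TE regions were gains. FLL against FLH gave 88 regions with 58 gains (65.9%, 55.5 to 75), with 0.128% of the bins called and 62.0% of 605 TE regions gaining. SQL against SQH gave 64 regions with 32 gains (50%, 38.1 to 61.9), with 0.105% of the bins called and 54.7% of 572 TE regions gaining. In each comparison the interval of the genic share held the TE share, and the shares over all CpHpG regions lay in the same range (82.8%, 78.6%, 62.2% and 54.1% gains in the same order).

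**Figure D2:**
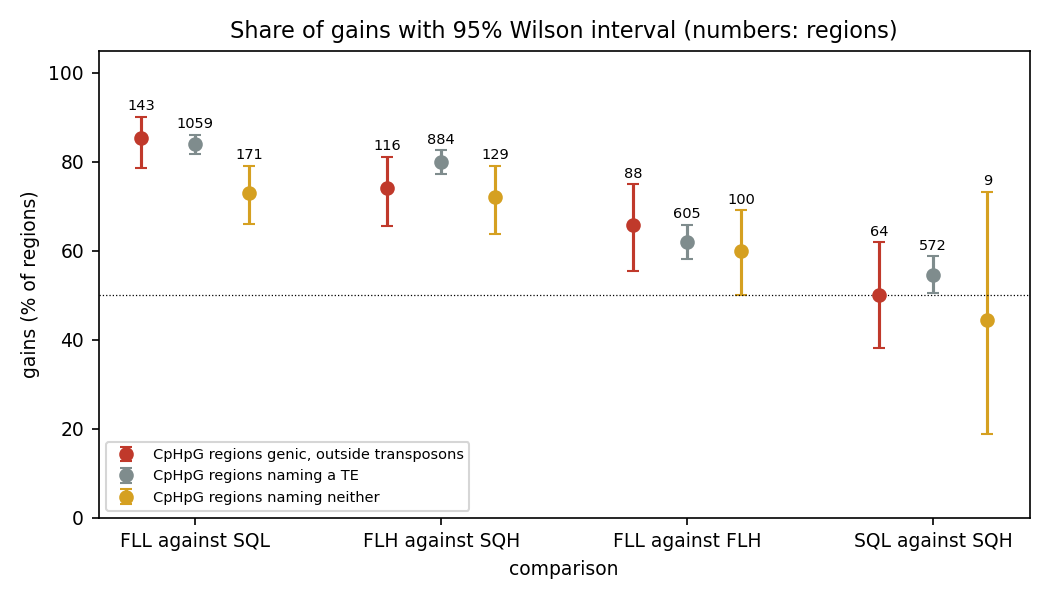
Share of gains in percent (y axis) by comparison (x axis) for genic CpHpG regions outside transposons, CpHpG regions that name a TE and CpHpG regions that name neither. Points are shares, bars are 95% Wilson intervals and the numbers are regions. The genic share goes from 85.3% in FLL against SQL to 50% in SQL against SQH and stays near the TE share.

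A stricter depth requirement changed that share in SQL against SQH. When 8 or more reads per cytosine were required of SQL and SQH alike, 17 of its 64 regions were left and 23.5% of these were gains. The median depth of the 64 was 8.59 reads per cytosine in SQL and 7.02 in SQH. The part of depth in the result was not tested.

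Levels were mostly intermediate rather than near 0 or complete. The median level of the 143 regions was 50.5% in FLL (quartiles 39.1 and 59.6) and 29.2% in SQL (19.0 and 43.0). In FLH against SQH it was 49.8% in FLH and 32.5% in SQH. In FLL against FLH it was 47.8% in FLL and 34.2% in FLH. In SQL against SQH it was 37.0% in SQL and 35.9% in SQH. The median absolute difference was 25, 26.7, 26.5 and 26.2 points in the same order, above a smallest called difference of 20 points. Just inside it stood AT3G19560, AT3G42970 and AT4G16195 at that value, and regions just outside it are not analysed here. The lower level was under 10% in 52 of the 411 entries and the higher level above 80% in 28. No methylated read was found in 1 of the regimes in 8 entries.

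**Figure D3:**
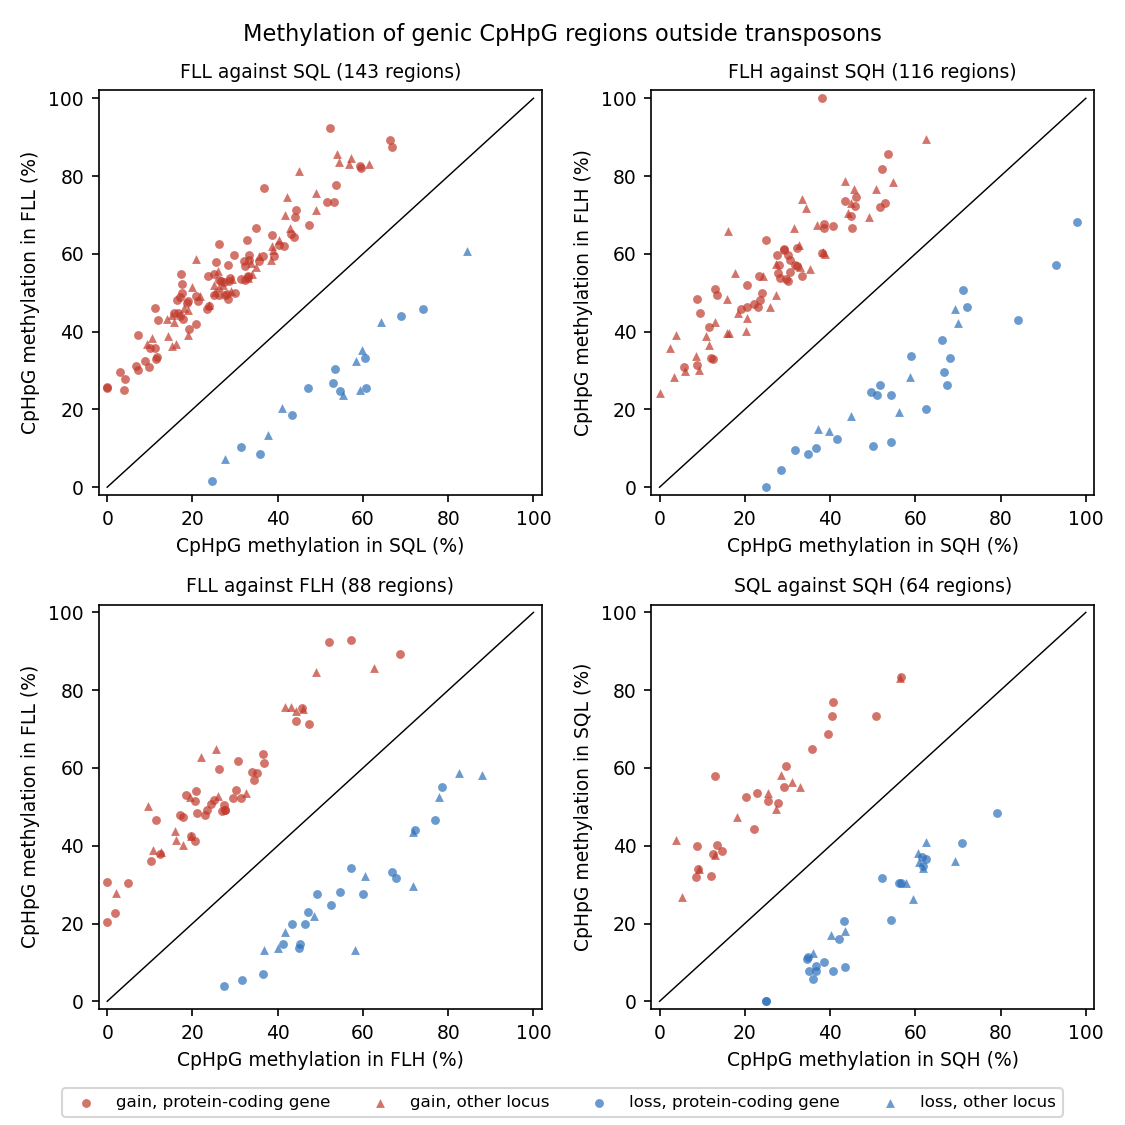
CpHpG methylation in percent of each genic region in the first-named regime (y axis) and in the other (x axis), 1 panel per comparison. Red points are gains and blue points losses, circles are protein-coding genes and triangles other loci, and the line marks equal levels. In FLL against SQL 122 of 143 regions lie above the line, and in SQL against SQH 32 of 64 do.

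In FLL against SQL, the largest gain, among regions where each cytosine had 8 or more reads on average, was at AT1G58390, a gene for an NBS-LRR disease resistance protein of the coiled-coil class (proteins that detect pathogens inside the cell). Its intron region (chr1:21692701-21692850) had 30 of 48 reads methylated in FLL (62.5%, 48.4 to 74.8) and 10 of 38 in SQL (26.3%, 15.0 to 42.0). AT3G22710, an F-box gene (F-box proteins choose the targets of a ubiquitin ligase), had 23 of 44 in FLL and 6 of 34 in SQL. A second F-box gene, AT5G41510, had 25 of 64 in FLL and 6 of 83 in SQL. The other large gains were AT5G37150 at 50% in FLL and 17.5% in SQL, the pseudogene AT3G29205 at 74.6% and 42.1%, and the transcribed pseudogene AT4G03913 at 51.6% and 20%. Levels in FLL thus ranged from 39.1% to 74.6% at these 6 regions. Their intervals did not overlap those of SQL, which the calling and the choice of the largest gains largely set.

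The losses in FLL against SQL were fewer. The largest, -35.2 points at AT2G07240, had only 6.88 reads per cytosine in FLL and 7.62 in SQL. The next 6 named here are the largest with 8 or more in both regimes. The pseudogene AT1G44045 had 10 of 42 reads methylated in FLL (23.8%) and 31 of 56 in SQL (55.4%), a difference of -31.5 points. AT5G67120, a gene for a RING/U-box protein (a class with many ubiquitin ligases), had 24 of 97 in FLL and 52 of 95 in SQL. AT1G24390 followed at 45.8% in FLL and 74.0% in SQL, and AT2G27320, AT2G24755 (a long non-coding RNA) and the pseudogene AT1G43763 had differences of -27.1, -25.8 and -24.5 points. LHCA2, which encodes an antenna protein of photosystem I, had fewer than 8 reads per cytosine in FLL. It had 5 of 59 in FLL (8.47%, 3.67 to 18.4) and 28 of 78 in SQL (35.9%, 26.1 to 47.0) in a coding exon (chr3:22746701-22746850). It was the only member found by the words photosystem, chlorophyll, chloroplast or plastid, and a CpG region of the same comparison in the same bin had the same direction.

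In FLH against SQH, the largest gain at that depth was at a region that overlaps the start of SCRL5, with its midpoint upstream. SCRL5 encodes a small secreted cysteine-rich protein like the pollen determinant SCR of self-incompatible relatives. The region (chr1:22460251-22460400) had 35 of 78 reads methylated in FLH (44.9%, 34.3 to 55.9) and 5 of 53 in SQH (9.43%, 4.10 to 20.3), and CpG and CpHpH regions of the same bin gained as well. ABCC13, a gene for an ATP-binding cassette transporter, had 49 of 94 in FLH and 22 of 107 in SQH. PUM17, a gene for an RNA-binding Pumilio protein, had 26 of 48 in FLH and 15 of 64 in SQH. The F-box gene AT3G56670 stood at 59.6% in FLH and 27.5% in SQH, NQR at 85.7% and 53.7%, and the region with its midpoint just downstream of AT2G29600 at 61.3% and 29.2%. A region with fewer than 8 reads per cytosine had the largest difference of the 411, and it is named because of that value: AT3G54925 had 24 of 24 reads methylated in FLH and 16 of 42 in SQH.

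Losses in FLH against SQH with enough depth numbered 5. The thionin-family gene AT1G30974 (thionins are small antimicrobial peptides) had 20 of 84 reads methylated in FLH (23.8%) and 38 of 70 in SQH (54.3%). The neighbouring F-box genes AT1G66300 and AT1G66290 had 10% and 26.3% in FLH, against 36.8% and 51.7% in SQH. The transcribed pseudogene AT2G11440 stood at 14.5% in FLH and 39.7% in SQH. TTN9, a gene needed for early seed development, had 0 of 54 in FLH, which allows a level of up to 5.56%, and 9 of 36 in SQH (25%, 13.8 to 41.1). It also had 0 of 59 in SQL.

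In FLL against FLH, 2 levels of fluctuating light were compared. The largest gain with enough depth was at AT2G01973, a pseudogene of an OTU-like cysteine protease, with 50 of 59 reads methylated in FLL (84.7%, 73.5 to 91.8) and 24 of 49 in FLH (49.0%, 35.6 to 62.5). AT3G43880 had 53.0% in FLL and 18.6% in FLH, AT4G07868 47.8% and 17.1%, AT2G07215 47.4% and 17.9%, and AT2G34110 72.1% and 44.3%. These 4 encode uncharacterized proteins. ARF12, a gene for an auxin response factor (transcription factors that bind auxin-responsive promoters), had 49 of 101 in FLL and 15 of 71 in FLH in an intron. Among the losses with enough depth, AT2G27320 and SCRL5 had differences of -33.3 and -31.1 points. The zinc knuckle gene AT3G43490 had 3 of 43 in FLL and 15 of 41 in FLH. AT3G30420, AT2G15250 and AT5G67120 had differences of -28.5, -28.1 and -27.7 points.

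RPP4, a gene for a TIR-NBS-LRR protein that recognises downy mildew and lies in a resistance gene cluster known to be subject to silencing, was also a loss in FLL against FLH. Its coding region (chr4:9490001-9490150) had 23 of 82 reads methylated in FLL (28.0%, 19.5 to 38.6) and 48 of 88 in FLH (54.5%, 44.2 to 64.5). It was 1 of 14 listed silenced or epiallelic loci and the only one named by a region. None of 23 listed genes of the silencing machinery, 26 listed light and photoprotection genes (a list without LHCA2) and 8 genes listed because the study names them was a member. Only 308 loci were named in all, and the share of all annotated genes that this makes was not computed. Nothing about the lists is therefore read from these counts, for RPP4 as for the absent genes.

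In SQL against SQH, 2 levels of square light were compared, and only 4 gains had this depth. CRK41, a gene for a cysteine-rich receptor-like kinase, had 46 of 86 reads methylated in SQL (53.5%, 43.0 to 63.7) and 21 of 92 in SQH (22.8%, 15.4 to 32.4). AT2G24755 stood at 58.3% in SQL and 28.6% in SQH, the pseudogene AT3G32914 at 56.3% and 31.1%, and AT3G27040, a gene for a MATH domain protein, at 73.3% and 50.8%. The largest losses at this depth were AT1G30974 with 16 of 77 in SQL and 38 of 70 in SQH, and AT3G43570, a GDSL-like lipase gene, with 4 of 52 and 20 of 49. AT5G25320, a gene for an ACT-like protein, had 2 of 35 in SQL and 14 of 39 in SQH. AT1G66300, AT4G04270 and AT5G18990, a pectin lyase-like gene, had differences of -27.8, -27.4 and -27.0 points. Levels in SQL at these losses ranged from 5.71% to 34.9%.

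Groups of genes were read from words in the RefSeq products, beside 298 gains among all 411 entries. F-box loci were 16 (the transcribed pseudogene AT2G32291 among them) with 25 regions, of which 18 were gains and 7 losses. In FLL against SQL 10 of 11 were gains, beside 122 of 143 for all genic regions there. In SQL against SQH 2 of 5 were, beside 32 of 64. The share of these groups among all annotated genes was not computed. Kinase-type genes were 9 with 17 regions, 9 gains and 8 losses. The transposon-protein loci had 11 gains in 12 regions. Uncharacterized, hypothetical or DUF-annotated loci were 127 with 169 regions, 124 gains and 45 losses. Disease resistance genes were 3: AT1G58390 and AT5G47260 gained in FLL against SQL and RPP4 had a loss in FLL against FLH. The median absolute difference was between 24.8 and 26.5 points in each of these groups, close to that of all members.

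A further 5 groups were formed after the values were seen, and are descriptions beside the same 298 gains in 411 entries. Loci grouped as small secreted or self-incompatibility type (13 loci) had 9 gains and 7 losses. These 13 also hold AT4G01240, whose product is a methyltransferase superfamily protein, and AT2G24761, a transcribed pseudogene. Myosin heavy chain-like proteins (7 genes) had 8 gains and 3 losses, zinc knuckle or nucleic acid binding proteins (12 genes) 11 gains and 4 losses, and pectin enzymes (4 genes) 4 gains and 1 loss. The 4 AGAMOUS-like genes of the MADS-box transcription factor family, AGL34, AGL36, AGL86 and AGL90, had 7 regions, 6 of them gains, all in coding exons. AGL34 had 48 of 84 reads methylated in FLL and 15 of 53 in SQL at one region, and 39 of 103 in SQL and 7 of 56 in SQH at another. AGL36, which is known to be imprinted in the endosperm, had 45.8% in FLL and 23.3% in SQL, and 44.3% in SQL and 22.1% in SQH at a second region. Exact copies elsewhere covered 61.4% of the windows of the first AGL36 region. AGL86 had 30.8% in FLL and 9.86% in SQL. AGL90 had 34.2% in FLL, 57.1% in FLH and 31.7% in SQH, a loss in FLL against FLH and a gain in FLH against SQH.

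Of the 308 loci, 228 had regions in 1 comparison, 72 in 2 and 8 in 3, and in 4 comparisons none had. Any 3 of the 4 comparisons have libraries in common, and the same count over all CpHpG regions was not made. The number of loci is therefore not read as a result. AT2G27320, annotated as a putative NEP-interacting protein with domain DUF239, was the only one of the 8 with the same region in all 3, and levels are known in all regimes. It had 21 of 63 reads methylated in FLL (33.3%, 22.9 to 45.6), 44 of 66 in FLH (66.7%, 54.7 to 76.8), 52 of 86 in SQL (60.5%, 49.9 to 70.1) and 30 of 78 in SQH (38.5%, 28.4 to 49.6). FLH and SQL were the high regimes and FLL and SQH the low ones. The intervals of the high and the low regimes did not overlap, which the calling largely set for the called pairs. SQL and SQH were not called as different here, and their intervals lay close together (from 49.9 in SQL and up to 49.6 in SQH). The region was thus a loss in FLL against SQL (-27.1 points) and a gain in FLH against SQH (28.2 points).

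The other 7 loci had more than 1 region each. At AT5G37150, annotated as a P-loop nucleoside triphosphate hydrolase, the 2 adjoining regions printed above went opposite ways in FLL against FLH: the first had 17 of 116 reads methylated in FLL (14.7%) and 33 of 80 in FLH (41.2%), against 10 of 87 in SQH (11.5%), and the second 53 of 129 in FLL (41.1%) and 18 of 88 in FLH (20.5%). Exact copies elsewhere covered 50.5% of the windows of the first and 0% of the second. At AT4G18150, annotated as a putative kinase with domain DUF1296, the printed region stood at 44.0% in FLL, 72.2% in FLH and 69.0% in SQL. At AT3G43148, a myosin heavy chain-like gene, the printed region stood at 37.8% in FLL, 12.5% in FLH and 41.6% in SQH.

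The pseudogene AT2G32291, derived from an F-box gene, had 82 of 163 reads methylated in FLL (50.3%), 11 of 115 in FLH (9.57%) and 42 of 166 in SQL (25.3%), with 3 intervals that did not overlap. The adjoining region had 47.5% in SQL and 18.2% in SQH. AT2G29605, a gene for a plant protein of unknown function, was higher in the first-named regime at 3 regions: 77.0% in SQL against 40.7% in SQH, 65.1% in FLL against 43.2% in SQL, and 54.4% in FLL against 30.3% in FLH. Copies elsewhere covered 94.1% of the windows of the first. AT5G39770, a restriction endonuclease-like gene, was higher likewise at 3 regions, with 71.4% in FLL against 44.4% in SQL at the first. The pseudogene AT2G06170 had 13.3% in FLL and 58.1% in FLH at a region with 30 and 43 reads, and 36.9% in FLL and 16.1% in SQL at another.

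**Figure D4:**
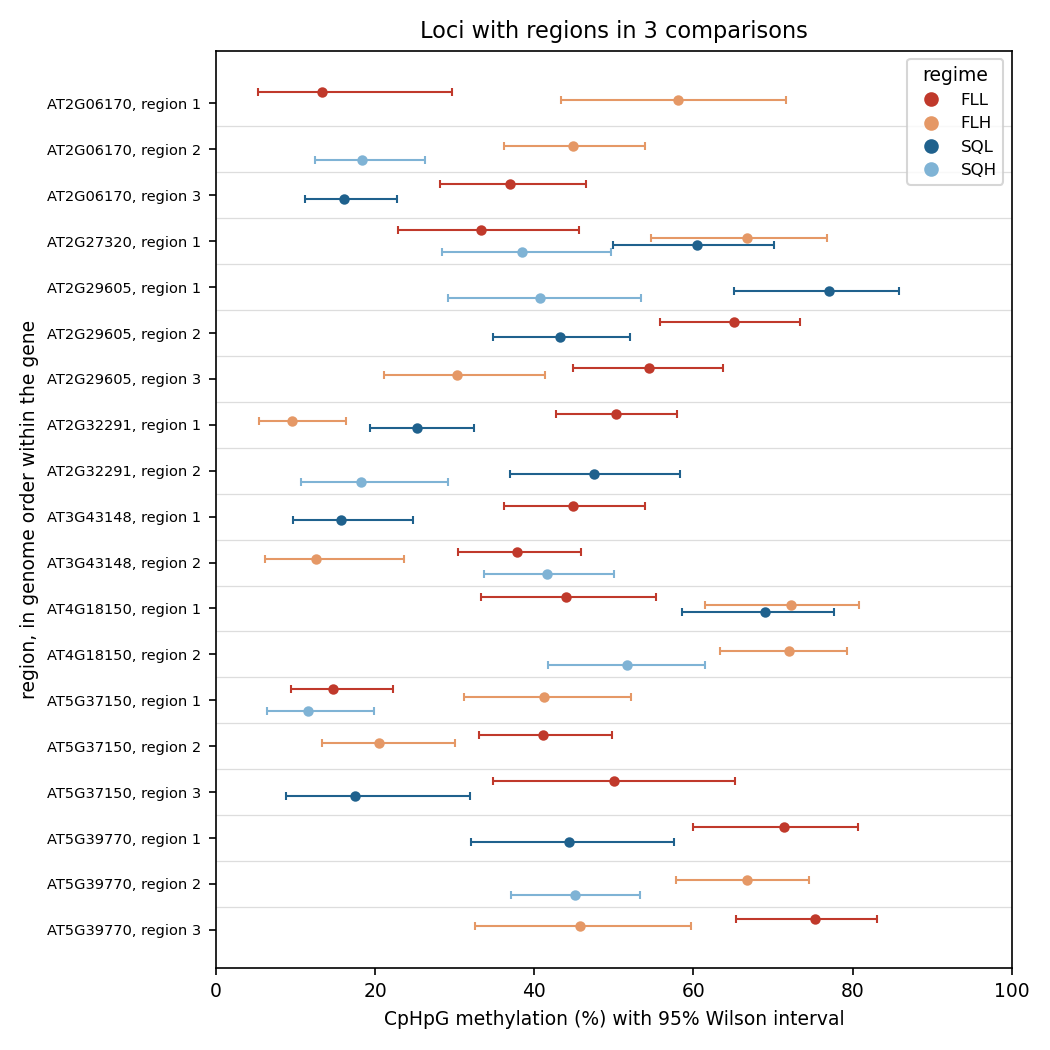
CpHpG methylation in percent (x axis) at each region of the 8 loci with regions in 3 comparisons (y axis). Points are levels by regime, for the regimes of the comparisons in which the region was called, and bars are 95% Wilson intervals. AT2G27320 is high in FLH (66.7%) and SQL (60.5%), and the adjoining regions 1 and 2 of AT5G37150 differ in opposite directions between FLL and FLH. The first 2 regions of AT2G06170 overlap.

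In both comparisons of fluctuating with square light, which have no library in common, 3 regions were called: 2.10% of the 143 and 2.59% of the 116. AT2G27320 was one of them. AT3G19560, an F-box gene, had 50% in FLL, 48.1% in FLH, 30.0% in SQL and 23.6% in SQH. The region at the pseudogene AT2G09860 had 45.5% in FLL, 39.6% in FLH, 19.0% in SQL and 16.2% in SQH. At both, the fluctuating regimes had the higher levels, with FLL and FLH overlapping in their intervals. Within 1 kb the number was 12, with 9 in the same direction. No region was shared by FLL against FLH and SQL against SQH, and within 1 kb 5 were, 3 of them in the same direction. The same counts over all CpHpG regions were not made, so these numbers are not read as a trait of the genic regions.

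Comparisons with a common library shared more regions: 20 with FLL in common, 12 with FLH, 7 with SQL and 13 with SQH. There the 2 differences rest on the same reads of that library. The counts that follow take only the shared regions with identical coordinates. FLL was the common library at 19 regions, where it was the highest of 3 regimes at 16 and the lowest at 3. FLH was common at 11, highest at 6 and lowest at 5. SQL was common at 6, highest at 3 and lowest at 3. SQH was common at 11, highest at 4 and lowest at 7. The other 2 regimes differed by a median of 3.19, 3.77, 5.75 and 2.82 points in that order. A level between those of the other 2 regimes would have required them to differ by both called differences together, so this pattern is largely set by the calling.

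Some of these regions had wide gaps. ABH1, which encodes a subunit of the nuclear cap-binding complex, had 25 of 49 reads methylated in FLH (51.0%) and 22 of 38 in SQL (57.9%), against 4 of 31 in SQH (12.9%, 5.13 to 28.9). The midpoint of its region lies upstream of the gene start, which the region overlaps. The pseudogene AT5G31807 had 9 of 23 in FLH and 12 of 29 in SQL, against 1 of 26 in SQH. AT2G07020, a kinase-type gene, had 48.5% in FLH and 40% in SQL, against 8.89% in SQH. The region with its midpoint downstream of AT4G26485, a methyltransferase-domain gene, had 92.9% in FLL, against 57.1% in FLH, which in turn stood against 92.9% in SQH. APD4, a gene for a RING/U-box protein named for its role in pollen, had 89.4% in FLL, against 68.6% in FLH and 66.3% in SQL. These 5 were chosen after their values were seen.

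**Figure D5:**
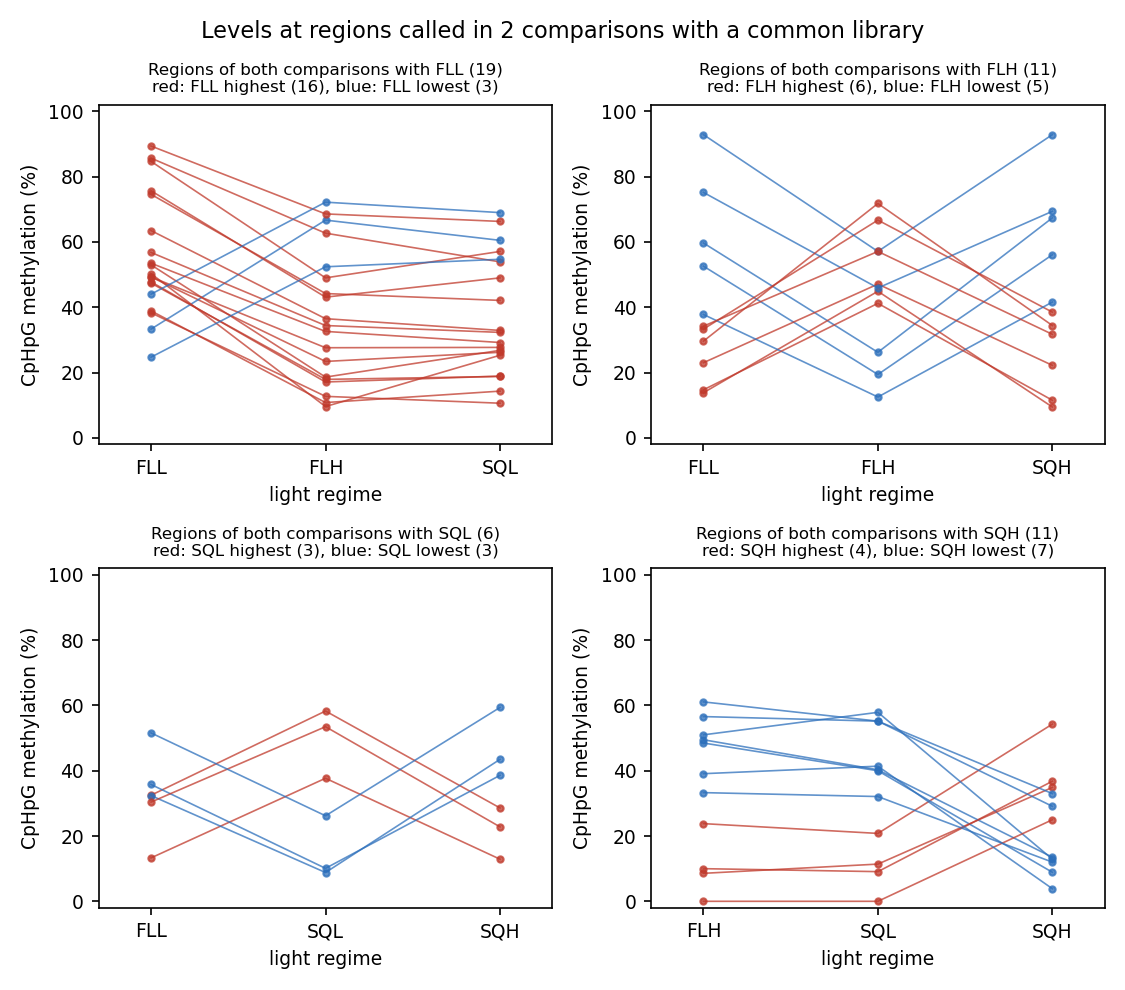
CpHpG methylation in percent (y axis) by light regime (x axis) at regions called with identical coordinates in 2 comparisons with a common library, 1 panel per common library and 1 line per region. Lines are red where the common library is the highest of the 3 regimes and blue where it is the lowest. FLL is the highest at 16 of 19 regions and SQH the lowest at 7 of 11.

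In 15 cases a gene had at least 2 regions in 1 comparison, and in 10 of these all had the same direction, as at MEE65 (2 gains in FLL against SQL). Since 298 of all 411 entries were gains, regions of unrelated genes would often have the same direction too, and nothing about single genes is read from this count. In 5 they had both directions, at AT1G27570, AT3G32914, AT3G44130, AT5G34795 and AT5G37150.

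Few genic CpHpG regions were also called in another context. A CpG region of the same comparison overlapped 14 of 411 (3.41%), each with the same direction, and a CpHpH region overlapped 30 with the same direction throughout at 29 (7.06%). In FLH against SQH 18 of 116 regions (15.5%) had either, against 10 of 143 in FLL against SQL (6.99%), 9 of 88 in FLL against FLH (10.2%) and 2 of 64 in SQL against SQH (3.12%). Of the CpHpG regions that name a TE, a CpG region started in the same bins at 2.44% and a CpHpH region at 7.53%. These TE shares count starts and not any overlap, so they are not the same measure as the genic shares.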

How the data were processed

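The authors trimmed the reads with Trimmomatic 0.39, aligned them with Bismark and Bowtie2 (per the labels, build TAIR10) and used DMRcaller to find regions over bins of 150 bp. For CpHpG a bin needed a p-value of at most 0.01, no fewer than 4 cytosines, a mean of 4 reads on each and a difference of 0.2 or more. Versions of Bismark and Bowtie2 are not given in the sources used here. The deposited values are counts of methylated and total reads summed over the cytosines of a region, without normalization, and a p-value per region, used only for an alternative threshold. Calling on 1 library per regime means that the spread between plants does not enter any p-value.

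From the counts, levels (methylated over total reads) and differences were computed with Python 3.11.15, numpy 2.4.6 and pandas 2.3.3. No test was run. At the genic regions the median depth was 7.02 to 8.85 reads per cytosine, and reads of a library were identical wherever 2 tables list the same region. RefSeq (TAIR10.1) gave gene types, products, positions (by midpoint) and sequences. Pericentromeres are the longest run of 500 kb windows per chromosome whose protein-coding genes number under 0.5 of the median window. The selection of regions was tested on simulated tables.

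Named are, per comparison, up to 6 of the largest gains and losses where both regimes have 8 or more reads per cytosine, loci in at least 3 comparisons, regions shared by comparisons without a common library, loci with at least 4 distinct regions (there were none) and listed genes. Other names (word groups, extremes, examples) were chosen after their values were seen. Members and lists were chosen with earlier results of these data known.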

Additional observations from a re-analysis of the deposited data

Results flagged for a closer look

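AT2G27320 went opposite ways in the 2 comparisons of fluctuating with square light. Its intron region differed by -27.1 points in FLL against SQL and by 28.2 points in FLH against SQH, with 63 reads in FLL, 86 in SQL, 66 in FLH and 78 in SQH. With 1 library per regime, this difference between the comparisons was not tested. Of the 3 regions that both comparisons list, it was the only one with opposite directions.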

How the results depend on the processing

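The direction of the share of gains held in each comparison but SQL against SQH, though at the stricter depth the interval of FLL against FLH reached below 50%. The direction of the levels held in the same comparisons when proportions were averaged. Levels were not computed under the other settings. Numbers are given for FLL against SQL, FLH against SQH, FLL against FLH and SQL against SQH in turn. The number of regions was 54, 27, 30 and 17 where 8 or more reads per cytosine were required, 42, 52, 38 and 30 at a deposited p-value of at most 0.001, and 23, 37, 26 and 16 with a difference of at least 0.3, where the median difference was by construction larger (32.5, 35.3, 33.4 and 33.0 points). Without pseudogenes and transposon proteins it was 89, 72 and 57 in the first 3 comparisons, and counting every table line gave 98 in SQL against SQH, whose table repeats regions. That depth also moved the share of gains to 77.8% (main 85.3%), 81.5% (74.1%), 56.7% (65.9%) and 23.5% (50%), so that the even split of SQL against SQH became mostly losses, and the cause was not tested. The interval of FLL against FLH at that depth was 39.2 to 72.6. Summed reads gave levels of 51.3% in FLL and 33.1% in SQL, 49.5% in FLH and 35.5% in SQH, 46.0% in FLL and 36.5% in FLH, and 38.6% in SQL and 39.2% in SQH. Averaging the proportions of regions instead gave 50.4% in FLL and 32.2% in SQL, 48.4% in FLH and 35.3% in SQH, 45.4% in FLL and 36.8% in FLH, and 37.2% in SQL and 36.9% in SQH, which turns the sign of the small difference between SQL and SQH. The shares of gains stayed within their intervals when regions within 1 kb were joined, when regions within 500 bp of a TE-naming region were left out, and, chosen after seeing the data, without regions copied elsewhere. Depth limits these results: at 4 cytosines and 4 reads each a level rests on few reads. No paired analysis was possible because each regime has 1 library.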
